A study of Mus musculus with 18 samples.

Results

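The genes of the cytosolic ribosomal proteins were followed in mouse melanoma RNA. Members were the protein-coding genes whose symbol starts with Rpl or Rps and a digit, together with Rplp0, Rplp1, Rplp2 and Rpsa, without the Rps6k kinases and the annotated pseudogenes. This rule gave 85 of the 37620 gene IDs that were counted. The annotation holds 86 such symbols, and Rpl24, under its newer ID, was not analysed here. The rule is one of names, so it also takes in Rps19bp1, a nucleolar protein that binds Rps19, and Rpl7l1, a nucleolar relative of Rpl7. Of the 85 members, 83 had counts in all 18 libraries and passed the filter on low counts. The testis-expressed Rpl10l had 0 counts in every library, and Rpl39l had 25 counts in total, with 0 to 3 per library.

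Each cytosolic ribosome holds a small subunit, which reads the mRNA, and a large subunit, which joins amino acids. Its proteins are made in matching amounts, and most of their mRNAs start with a run of pyrimidines, the 5′ terminal oligopyrimidine (TOP) sequence, through which growth signalling by mTOR sets their translation. Proteins such as Rpl5 and Rpl11 also bind Mdm2, the ubiquitin ligase of p53, when ribosome assembly is disturbed. A few members have relatives with a narrower expression, among them Rpl3l, the form of Rpl3 made in skeletal and heart muscle.

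All tumours were grown from MO4 cells, a B16F10 melanoma line that expresses ovalbumin (OVA), in C57BL/6 mice that received 100000 cells under the skin of each hindlimb on day 0. The treated mice received iPSC-pMCs, cells derived from induced pluripotent stem cells (pMC below), or IFN-α-iPSC-pMCs (IFN-alpha-pMC below), beside the right tumour on days 5, 6 and 7, with 1000000 cells each time. Control mice had the same tumours and no cells, and tumour RNA was taken on day 11 from the right and the left (distant) side, which gave 6 groups of 3 libraries. The animals' age is not given in the sources used here. Nothing there says that a group's libraries are from different mice either, so the p-values measure only a spread among libraries that may be technical. Levels are given as CPM, counts per 1000000 gene counts of a library, or as centred log2 CPM, where 0 is the gene's own mean over the 18 libraries.

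Library totals were 14346091 to 23430259 gene counts, and 14849 genes were tested. The melanoma label was borne out by 15 melanocyte marker genes, whose summed level was 33968.6 to 45280.1 CPM over all libraries, with none at 0 in a group. Libraries of the right control (replicate 3), the right IFN-alpha-pMC group (replicate 3) and the left IFN-alpha-pMC group (replicate 1) had been found to stand apart from their groups in earlier work on these data, and results that rest on them are given with and without them.

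The 5′ ends of members are shown because the TOP run is the feature that the family is known for. RefSeq promoter windows on build GRCm38.p6 were found for 65 of the 85 members (77 windows, since some genes have several starts). A run of C followed by at least 7 bases that are C or T, on the gene's strand and within 20 bases before to 20 bases after the annotated start, was in 31 of the 77 windows (40.3%) and in 12.6% of all 32851 windows. On the other strand the same run was in 3.9% of the members' windows and 13.7% of all windows. The 40 bases around the start are printed below for the member with the smallest slope in the results (Rpl4), another member with small variation (Rpl28), 2 members with large slopes (Rpl13a, and Rps27l at its upstream start) and the muscle form Rpl3l (upstream start), with the run in capitals.
Rpl4 (chr9:64173367-64173406, + strand): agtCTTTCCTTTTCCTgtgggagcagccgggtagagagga
Rpl28 (chr7:4792945-4792984, + strand): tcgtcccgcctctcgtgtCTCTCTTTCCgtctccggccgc
Rpl13a (chr7:45128726-45128765, - strand): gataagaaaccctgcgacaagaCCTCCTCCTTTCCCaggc
Rps27l (chr9:66946066-66946105, + strand): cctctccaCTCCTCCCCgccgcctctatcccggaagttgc
Rpl3l (chr17:24727806-24727845, + strand): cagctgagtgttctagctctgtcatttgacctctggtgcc

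The runs of Rpl4, Rpl28, Rpl13a and Rps27l were 13, 10, 14 and 9 bases long. Neither annotated start of Rpl3l had one, nor did the downstream start of Rps27l. Of the 65 members with a window, 30 held a run, so its lack is not particular to Rpl3l. Other letters searched on both strands of the whole 300-base windows were CCGGAAG (35.1% of the members' windows, 8.9% of all), AAGATGGC (10.4% and 2.7%), CACGTG (10.4% and 7.2%) and TATAAA (9.1% and 13.6%). A match is a description of these letters only. The annotated start and the start used in these tumours may differ.

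Ribosomal protein genes took 2.48 to 8.53% of the gene counts of a library. In the right control group the shares were 4.11, 2.48 and 6.76%, in the right pMC group 4.55, 4.94 and 5.36%, and in the right IFN-alpha-pMC group 5.07, 5.59 and 3.11%. On the left they were 3.75, 4.24 and 3.95% in controls, 4.52, 5.12 and 4.33% in the pMC group, and 8.53, 4.56 and 3.99% in the IFN-alpha-pMC group. The standard deviations of the right control group (2.16 percentage points, n = 3) and the left IFN-alpha-pMC group (2.48, n = 3) were larger than any difference between group means, and the lowest and the second highest share of the series were both right controls. Among 9 pairs of groups, only the left pMC and left control libraries did not overlap (4.66 ± 0.411% against 3.98 ± 0.243%, SD, n = 3 each; exact permutation test, two-sided, p = 0.1, the smallest that 3 against 3 allows, adjusted p = 0.9). The left IFN-alpha-pMC group (5.69 ± 2.48%, n = 3) and the left control group differed by 1.71 percentage points with p = 0.2 by the same exact test, and the difference was 0.29 points without the replicate at 8.53%.

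Per kilobase of transcript, Rpl41 (the shortest ribosomal protein, 3035.1 CPM per kb), Rpl32 (2982.9), Rplp1 (2218.3), Rps14 (1787.1) and Rpsa (1567.2) had the highest mean levels over the 18 libraries. The lowest were Rpl10l at 0, Rpl39l (0.0917 CPM per kb), Rpl3l (1.85), Rpl23a (2.41) and Rps19bp1 (32.9). Rpl23a, a conserved protein at the exit of the nascent chain, had only 443 counts over all libraries, and 172 of them were in left control replicate 1. Read pairs with several alignments were left uncounted by the counter, which makes the level of Rpl23a, and of other genes with near-identical copies, uncertain.

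The members moved up and down together between libraries. In centred log2 CPM, the median of the 83 tested members was -0.24, -0.97 and 0.71 in the right controls, 0.00, 0.16 and 0.25 in the right pMC group and 0.21, 0.39 and -0.58 in the right IFN-alpha-pMC group. It was -0.34, -0.14 and -0.29 in the left controls, -0.06, 0.06 and -0.11 in the left pMC group and 1.12, 0.10 and -0.14 in the left IFN-alpha-pMC group. Left IFN-alpha-pMC replicate 1 and right control replicate 2 were the extremes, 4.27-fold apart. In right control replicate 2 all 83 members were below their own mean, and in right control replicate 3 all 83 were above it. Left IFN-alpha-pMC replicate 1 held the highest level of 68 members, and right control replicate 2 the lowest level of 76.

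**Figure D1:**
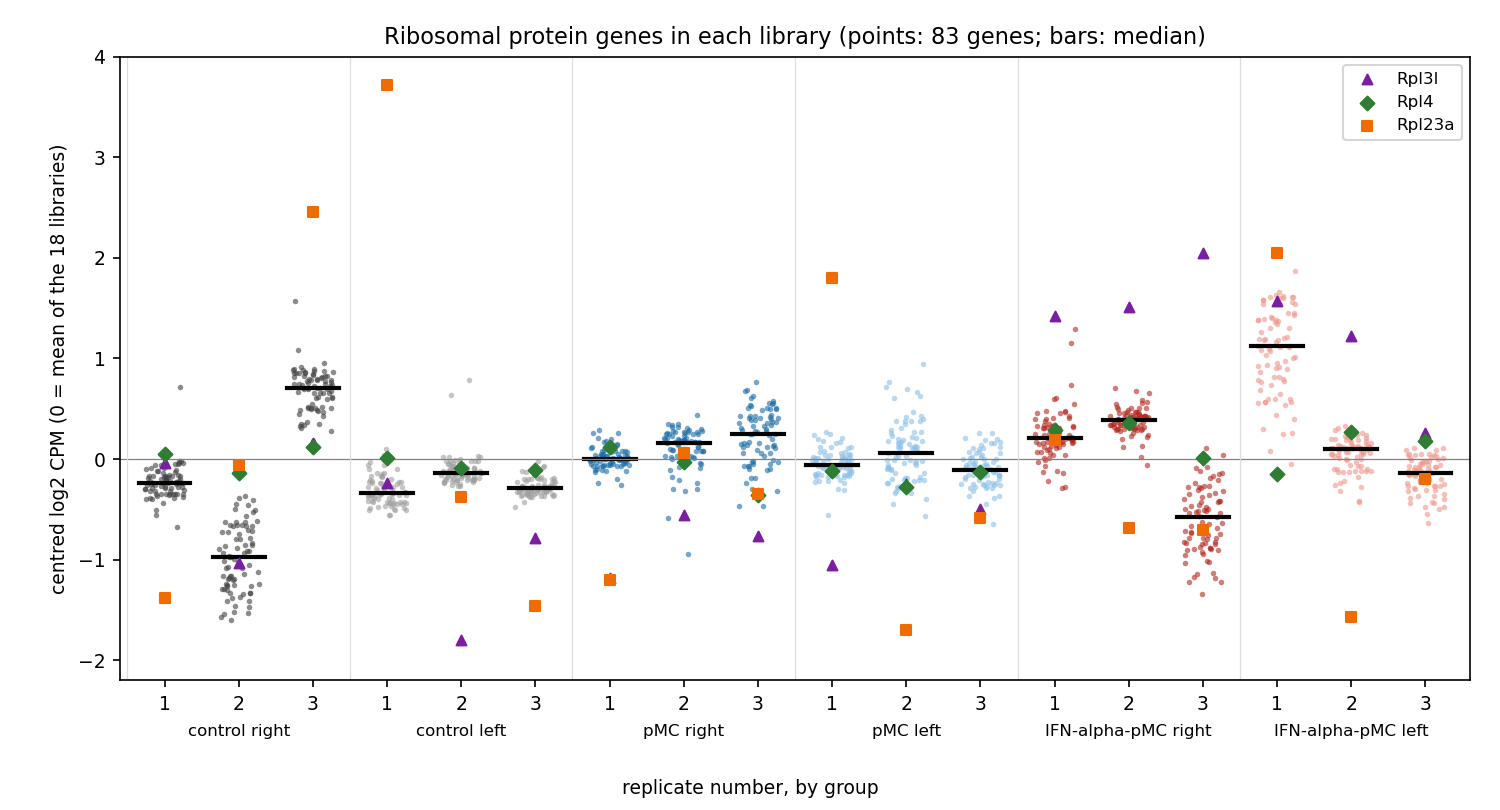
Centred log2 CPM (y axis, 0 is a gene's mean over the 18 libraries) of the 83 tested ribosomal protein genes, as points in each library (x axis, replicate numbers by group), with the median as a bar and Rpl3l, Rpl4 and Rpl23a marked. The medians run from -0.97 in right control replicate 2 to 1.12 in left IFN-alpha-pMC replicate 1, Rpl4 stays between -0.36 and 0.36, and Rpl3l is high in the IFN-alpha-pMC libraries.

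Single members differed in how closely they followed this order of libraries. Rplp0, the base of the stalk that recruits translation factors to the large subunit, was at 1450.1, 785.5 and 2580.8 CPM in the right controls, 1660.5, 1956.5 and 2032.1 CPM in the right pMC group and 1767.0, 2064.1 and 1130.5 CPM in the right IFN-alpha-pMC group. On the left, Rplp0 was at 1343.9, 1475.9 and 1399.6 CPM in controls, 1477.9, 1687.3 and 1667.1 CPM in the pMC group and 3151.7, 1662.2 and 1458.0 CPM in the IFN-alpha-pMC group. The right groups overlapped, and on the left the single high library set the IFN-alpha-pMC group apart from the others. The stalk proteins Rplp1 and Rplp2 had narrower spans, from 758.4 to 1614.1 CPM and from 257.0 to 503.4 CPM, and both were lowest in right control replicate 2. Rplp2 was highest in left IFN-alpha-pMC replicate 1, but Rplp1 was highest in right control replicate 3, with right IFN-alpha-pMC replicate 2 (1444.5 CPM) and left IFN-alpha-pMC replicate 1 (1360.0 CPM) below it. Rpsa, the small subunit protein also known as the laminin receptor, spanned 1512.7 to 3849.1 CPM, again lowest in right control replicate 2 and highest in left IFN-alpha-pMC replicate 1.

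The p53-linked members moved in the same way. Rpl5, which with Rpl11 and 5S rRNA binds Mdm2, was at 685.9, 394.7 and 1276.7 CPM in the right controls, 949.1, 1104.5 and 501.7 CPM in the right IFN-alpha-pMC group, 632.4, 753.7 and 731.3 CPM in the left controls and 2163.2, 910.3 and 722.7 CPM in the left IFN-alpha-pMC group. Rpl11 spanned 242.2 to 872.0 CPM between the same 2 libraries. The medians of the 9 p53-linked members were -1.24 in right control replicate 2 and 1.36 in left IFN-alpha-pMC replicate 1, a range of 2.6 on the log2 scale. Proteins of the exit tunnel (9 tested genes) and of the mRNA channel and decoding site (8 tested genes) had ranges of 2.14 each.

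How closely each member followed the family was described by the slope of its centred log2 CPM on the median of the 83. Without Rpl3l and Rpl23a, the median correlation of a pair of members over the 18 libraries was 0.89 (5th percentile of pairs 0.37), and 60 of 81 members had a correlation above 0.9 with the median. All of these values share libraries and scaling, and they are descriptions. Slopes ran from 0.05 (Rpl4) to 1.52 (Rpl17), with a median of 0.99. Members with symbols starting with Rps (34, Rps19bp1 among them) had a median slope of 1.14. Those starting with Rpl (47, Rpl7l1 among them) had one of 0.95. Slope was only weakly ordered by transcript length (Spearman rho -0.19 over 81 members), coding length (-0.11), GC content (-0.11) or mean CPM (0.28). The median slope was 1.12 for the 30 members with a pyrimidine run and 1.0 for the 32 without one.

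Rpl4, a large subunit protein that lines the exit tunnel, was the steadiest member. It was at 1215.1, 1103.4 and 1096.7 CPM in the right controls, 1192.7, 1061.6 and 831.4 CPM in the right pMC group and 1319.6, 1359.3 and 1200.9 CPM in the right IFN-alpha-pMC group. On the left it was at 1154.5, 1081.0 and 1075.9 CPM in controls, 1033.9, 925.6 and 1010.4 CPM in the pMC group and 833.3, 1310.6 and 1254.6 CPM in the IFN-alpha-pMC group. In left IFN-alpha-pMC replicate 1, where 68 members peaked, Rpl4 had the lowest level of its group. The other members with the smallest standard deviations over libraries were Rpl28 (0.23 on the log2 scale, against 0.20 for Rpl4), Rps4x (0.23), Rpl23 (0.25) and Rpl29 (0.26), with slopes of 0.38, 0.39, 0.41 and 0.28, and Rps26 had a slope of 0.25. Rps2, a protein of the mRNA entry channel with a slope of 0.38, had a wide spread of its own, from 120.3 CPM in left pMC replicate 3 to 452.0 CPM in right IFN-alpha-pMC replicate 1.

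At the other end, Rpl13a, known as a protein that can leave the ribosome and silence inflammatory mRNAs after interferon-gamma, had a slope of 1.44. It was at 1222.2, 489.5 and 2185.5 CPM in the right controls, 1299.0, 1537.4 and 1970.3 CPM in the right pMC group and 1175.8, 1565.9 and 635.2 CPM in the right IFN-alpha-pMC group. On the left it was at 1038.8, 1170.6 and 1144.9 CPM in controls, 1366.4, 2285.4 and 1524.1 CPM in the pMC group and 3398.2, 1087.2 and 974.9 CPM in the IFN-alpha-pMC group. The left pMC libraries were above the left controls with no overlap, but the difference of 0.67 ± 0.55 (log2, SE) did not pass the test (edgeR adjusted p = 1). Besides Rpl3l and Rpl23a, the largest standard deviations were those of Rpl17 (0.75), Rpl41 (0.74), Rps14 (0.73) and Rpl13a (0.73). The printed 5′ ends of Rpl4 and Rpl13a both hold a run, in Rpl4 before and in Rpl13a after the annotated start.

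Ribosomal protein transcripts are short, and levels in these libraries were ordered by transcript length. The median transcript was 780 bases for the 85 members and 2670 bases for all genes tested. Over the 14312 tested genes with a known length that are not members, the Spearman correlation of centred log2 CPM with length was 0.35, 0.56 and -0.50 in the right controls, 0.06, -0.07 and -0.16 in the right pMC group and -0.30, -0.41 and 0.39 in the right IFN-alpha-pMC group. On the left it was 0.37, 0.28 and 0.39 in controls, 0.30, 0.04 and 0.09 in the pMC group and -0.48, -0.18 and -0.06 in the IFN-alpha-pMC group. A negative value means that short transcripts were relatively high in that library. In 7 of the 8 libraries with a negative trend the ribosomal protein median was above 0. Of the 10 libraries with a positive trend, 8 had a median below 0 and 1 had a median of 0.00.

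**Figure D2:**
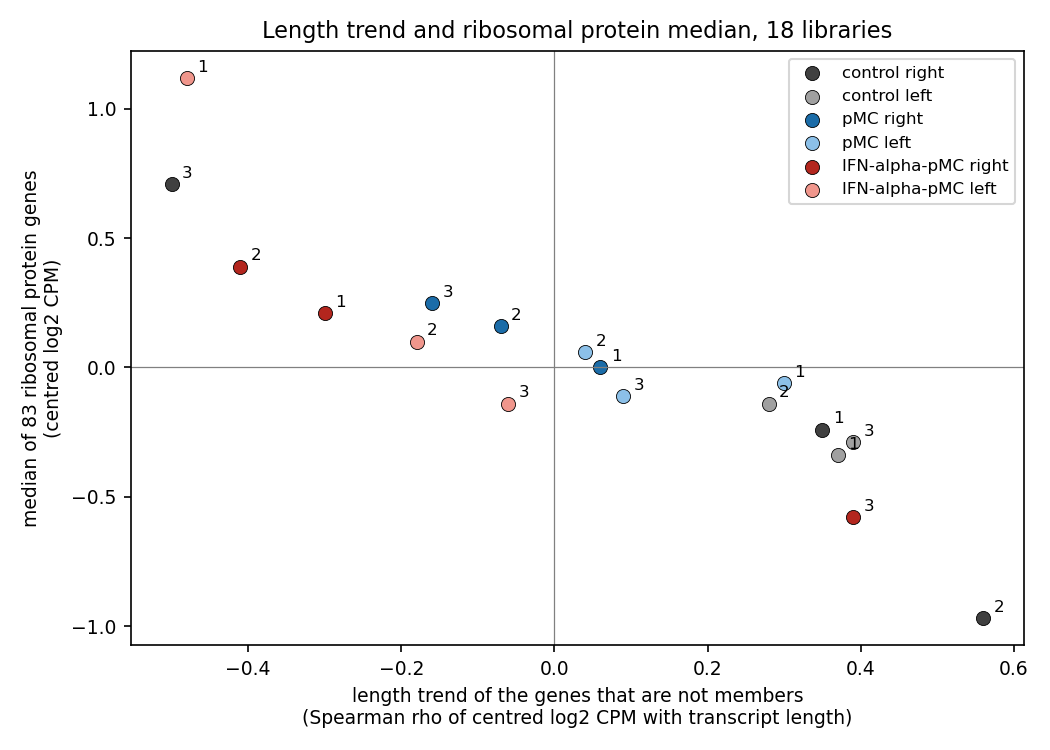
Median centred log2 CPM of the 83 ribosomal protein genes (y axis) against the Spearman correlation of level with transcript length over the other genes (x axis), one point for each of the 18 libraries, numbered by replicate. Right control replicate 2 is at 0.56 and -0.97 and left IFN-alpha-pMC replicate 1 at -0.48 and 1.12, and left IFN-alpha-pMC replicate 3 (-0.06 and -0.14) and left pMC replicate 2 (0.04 and 0.06) are the exceptions to opposite signs besides the median of 0.00.

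Length class ordered the members less strongly than the other genes. In left IFN-alpha-pMC replicate 1 the other genes had medians of 0.97 under 600 bases, 0.83 from 600 to 1000, 0.39 from 1000 to 2000, -0.16 from 2000 to 4000 and -0.39 over 4000 bases. The members had medians of 1.38, 1.05, 1.11, 0.80 and 1.37 in the same classes. In right control replicate 2 the other genes ran from -0.62 under 600 bases to 0.34 over 4000 bases, and the members were at -1.12, -0.95, -0.85, -0.74 and -1.12. Up to 4000 bases the members' medians mostly went the same way with length as those of the other genes, over a smaller span. The classes held 28, 34, 17, 3 and 1 members, so the last 2 classes are Rpl5, Rpl7l1, Rps20 and Rps15a (5130 bases by the transcript used). The coding parts of Rps15a and Rps20 are only 390 and 357 bases. The annotated transcript used for a gene may not be the one expressed in these tumours, so these classes are uncertain. Rps15a had a slope of 1.22, and the next longest transcripts, Rps20, Rpl7l1, Rpl5 and Rps3, had slopes of 0.72, 0.77, 1.32 and 1.34. The shortest, Rps27, Rpl38, Rps27rt, Rps28 and Rpl36 (345 to 383 bases), had slopes of 1.36, 0.86, 0.86, 0.54 and 1.2. Both ends of this range of annotated lengths held members that followed the family closely and members that did so less.

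**Figure D3:**
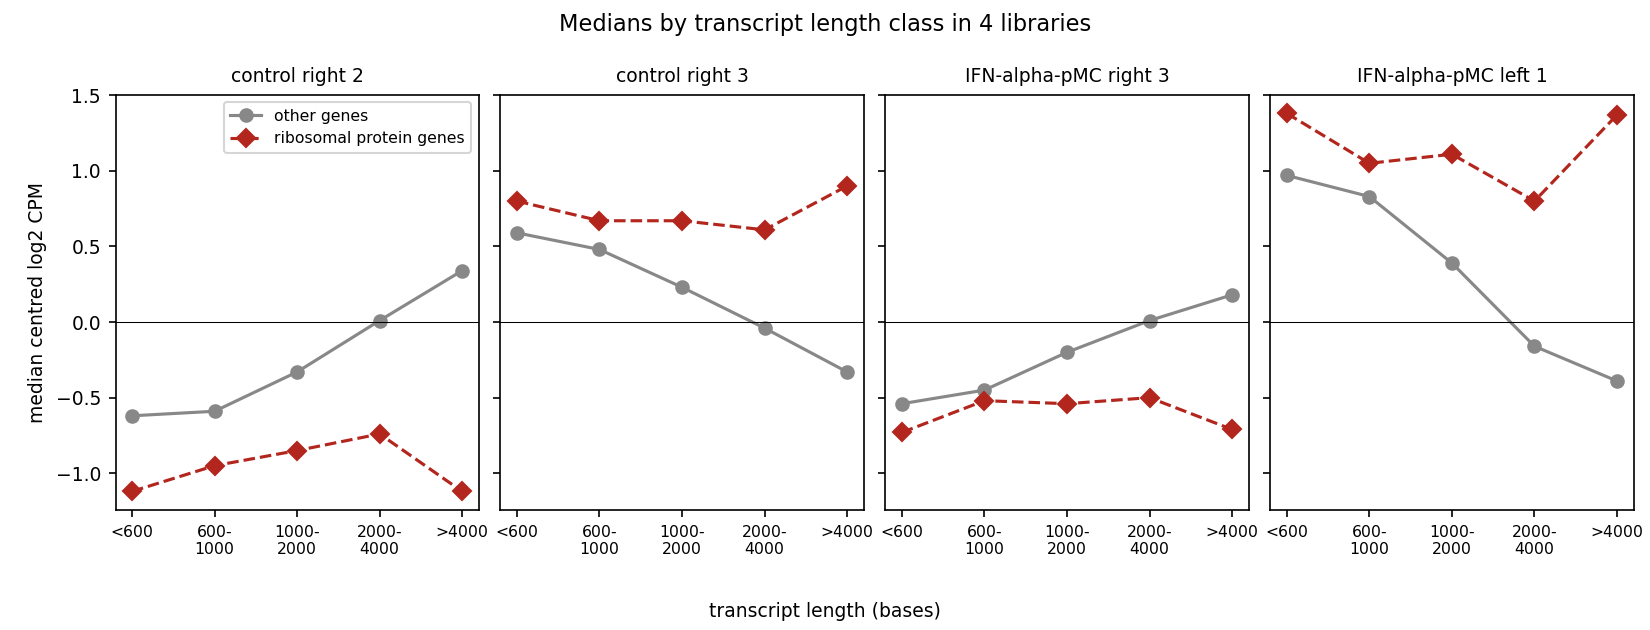
Median centred log2 CPM (y axis) by transcript length class in bases (x axis) for ribosomal protein genes (diamonds, 28, 34, 17, 3 and 1 genes) and for the other tested genes (circles, 608, 963, 3363, 5516 and 3862 genes) in 4 libraries. The other genes cross 0 with length in each panel, while the ribosomal protein genes stay on one side of 0 in all classes.

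When the log2 values were corrected in each library with a smooth function of transcript length and GC content fitted on genes that are not members, the range of the members' median over the 18 libraries went from 2.09 to 0.97, and its standard deviation within groups from 0.49 to 0.24. The order at the ends remained, with right control replicate 2 at -0.49, right IFN-alpha-pMC replicate 3 at -0.32, right control replicate 3 at 0.36 and left IFN-alpha-pMC replicate 1 at 0.49. The libraries also differed in the share of read pairs outside annotated genes. It was 4.04 to 6.12% in the IFN-alpha-pMC libraries and 6.87 to 12.21% in the others, and it was highest in right control replicate 2. Whether the length trend came from the tissue or from library preparation was not tested.

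Genes outside the rule that share the family's work were compared by list. The per-library median of 10 genes fused to or bound to ribosomal proteins had a range of 1.81 over the libraries, against 2.09 for the members, 0.79 for 37 translation factors and 0.38 for 55 ribosome assembly factors. Median transcript lengths were 1398, 775, 2084 and 2597 bases in that order. Fau (the fusion that carries Rps30), Tma7, Rack1, Naca and Btf3 had slopes of 1.26, 1.18, 1.13, 1.07 and 1.03 on the members' median. The annotated transcripts used for them had 508 to 6745 bases and may not be the ones expressed in these tumours. Translation factors were divided, since Eif3h (1.09), Eif3i (1.08), Eef1b2 (1.06), Tpt1 (1.04) and Eef1a1 (0.96) had slopes like those of the members, whereas Eef2 (-0.56), Pabpc1 (-0.49) and Eif4b (-0.47) moved the other way. Eef2, Pabpc1 and Eif4b also carry TOP mRNAs, and their transcripts were 3089, 2817 and 3854 bases long.

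Rpl3l was the only member that passed the test in any of the 12 comparisons. It was at 5.09, 5.33 and 8.83 CPM in the right IFN-alpha-pMC group (112, 93 and 207 counts), 1.94, 0.959 and 1.94 CPM in the right controls and 0.771, 1.23 and 1.04 CPM in the right pMC group. On the left it was at 4.88, 4.45 and 2.28 CPM in the IFN-alpha-pMC group, 1.64, 0.488 and 1.12 CPM in controls and 0.875, 1.59 and 1.31 CPM in the pMC group. On both sides every IFN-alpha-pMC library was above every control and pMC library. Fewer cells of a type and less RNA per cell cannot be told apart in such bulk samples.

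On the right, Rpl3l rose by 1.99 ± 0.42 (log2, SE) against control (edgeR's quasi-likelihood test, adjusted p = 0.00415) and by 2.61 ± 0.44 against pMC (adjusted p = 0.00066). Of all genes tested, 8.78% and 8.88% were called higher in these comparisons, against 1 of 83 members. On the left, Rpl3l rose by 1.99 ± 0.44 against control (adjusted p = 0.0216) and by 1.76 ± 0.43 against pMC (adjusted p = 0.0356), where 4.05% and 2.71% of all genes were called higher. The difference between sides in the effect against control was 0.00 and did not pass the test (edgeR adjusted p = 0.999). That in the effect against pMC (0.85, adjusted p = 0.52) did not pass it either. This does not show that the effects were equal on the 2 sides. Both right calls were kept without any single library. The left call against control was lost without left control replicate 2 or 3 or left IFN-alpha-pMC replicate 1 or 2 (edgeR adjusted p = 0.0669 to 0.0996). The left call against pMC was lost without any left pMC replicate, left IFN-alpha-pMC replicate 1 or 2, left control replicate 3 or right pMC replicate 2 (adjusted p = 0.052 to 0.125).

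Skeletal muscle transcripts moved with Rpl3l. The summed level of 28 skeletal muscle genes, all of which matched an ID, was 2241.3 to 5058.1 CPM in the right IFN-alpha-pMC group, 125.0 to 1401.1 CPM in the right controls, 176.5 to 346.9 CPM in the right pMC group, 892.3 to 1404.5 CPM in the left IFN-alpha-pMC group, 99.7 to 530.4 CPM in the left controls and 98.9 to 236.6 CPM in the left pMC group. In both control groups Tnnc2 was at 0, in the right pMC group Tnnc1, Tnnc2 and Myh7, and in both other left groups Tnnc1 and Tnnc2. Of 25 tested muscle genes, 5 and 15 were called higher on the right against control and pMC, and 5 and 4 on the left. With a muscle score as a covariate the differences of Rpl3l were 0.98 and 1.44 on the right and 1.05 and 0.60 on the left, and none passed the test (edgeR adjusted p = 0.181, 0.0671, 0.131 and 0.414). In each of these comparisons the muscle scores of the groups did not overlap. They were 2.37 to 3.42 in the right IFN-alpha-pMC group and at most 1.96 in the right controls. On the left they were 0.92 to 2.06 and at most 0.83. Muscle and treatment therefore cannot be told apart by this fit. At a like muscle level, right control replicate 1 (1401.1 CPM) had 1.94 CPM of Rpl3l and left IFN-alpha-pMC replicate 1 (1404.5 CPM) had 4.88 CPM. Of the summed Rpl3 and Rpl3l counts, Rpl3l was 0.263% and 0.321% in them (exact 95% intervals 0.188 to 0.358% and 0.253 to 0.401%, counting error only). These are single libraries of different sides, the second stands apart from its group, and the part of muscle was not tested by them. Immune markers rose in the same comparisons, with 23 and 23 of 23 T and NK cell genes called higher on the right and 16 and 8 on the left, and their part in the difference was not tested.

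**Figure D4:**
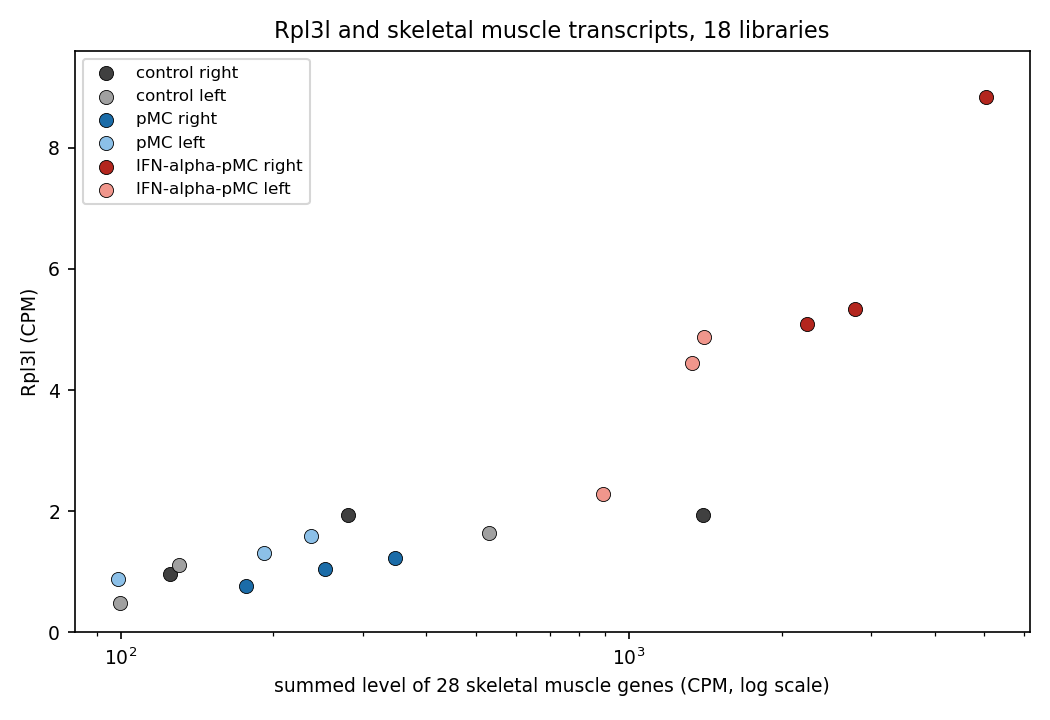
Rpl3l (y axis, CPM) against the summed level of 28 skeletal muscle genes (x axis, CPM, log scale) in the 18 libraries, coloured by group. The right IFN-alpha-pMC libraries are at 5.09 to 8.83 CPM of Rpl3l with muscle levels of 2241.3 to 5058.1 CPM. The right controls are at 0.959 to 1.94 CPM of Rpl3l with muscle levels of 125.0 to 1401.1 CPM.

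The parent gene Rpl3 was not called. It was at 735.9, 561.6 and 1144.1 CPM in the right controls and 1099.3, 1099.5 and 658.2 CPM in the right IFN-alpha-pMC group, which overlapped. On the left, Rpl3 was at 1515.6, 986.0 and 855.9 CPM in the IFN-alpha-pMC group, 673.4, 834.6 and 749.3 CPM in controls and 812.0, 775.3 and 816.6 CPM in the pMC group, so there the IFN-alpha-pMC libraries were above all others, as for Rpl3l, but the differences did not pass the test (edgeR adjusted p = 0.109 against control and 0.201 against pMC). Rpl3l made up 0.263, 0.171 and 0.169% of the counts of the pair in the right controls and 0.461, 0.483 and 1.32% in the right IFN-alpha-pMC group (exact Clopper-Pearson 95% interval of the last, 1.15 to 1.52%, counting error only). On the left the share was 0.243, 0.0584 and 0.149% in controls and 0.321, 0.449 and 0.266% in the IFN-alpha-pMC group.

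Besides Rpl3l, no relative among the members was called. Rpl22l1, the relative of the p53-linked Rpl22, followed the family with a slope of 1.27 and spanned 17.8 CPM in right control replicate 2 to 90.0 CPM in left IFN-alpha-pMC replicate 1, and Rpl22 had a slope of 1.05. Rps27l, which is itself a target gene of p53, spanned 53.2 to 318.6 CPM between the same libraries (slope 1.43, against 1.36 for Rps27). Rpl36al and Rpl36a had slopes of 0.96 and 0.86, and Rpl7l1 and Rpl7 of 0.77 and 0.98. Among the other parent genes, Rpl26, Rpl39 and Rpl10 had slopes of 1.04, 0.92 and 0.67. Rps27rt, a retrogene copy of Rps27 with a coding part of equal length (252 bases), went less with the family (correlation 0.63 with the members' median) and spanned 13.3 to 70.8 CPM. Rps4l, a transcribed pseudogene outside the rule, was at 2.32, 1.84 and 1.88 CPM in the right IFN-alpha-pMC group and 0.22, 0.519 and 0.777 CPM in the right pMC group, a rise of 1.94 ± 0.47 (log2, SE; edgeR adjusted p = 0.0112). The difference of Rps4l was 1.59 without right pMC replicate 1 (adjusted p = 0.0632) and 1.79 with the muscle score (adjusted p = 0.163), so its size was kept while the call was lost.

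Between the treated and control tumours on the right, the members' median log2 change was 0.07 for IFN-alpha-pMC minus control (all genes -0.03), -0.02 for IFN-alpha-pMC minus pMC (all genes -0.04) and 0.15 for pMC minus control (all genes -0.03). In pMC minus control 0% of all genes and 0 members were called. Without the 3 libraries that stand apart these medians were 0.84, 0.18 and 0.72, and 73, 11 and 65 of 83 members were called higher, none lower, beside 54.4%, 28.5% and 33.7% of all genes called in either direction. The 5 members called in neither comparison with control were Rpl4, Rpl23a, Rpl41, Rps2 and Rps27rt. The right control group then consisted of replicates 1 and 2, and replicate 2 was the library with the lowest ribosomal protein level. With the length and GC correction as well, 27 members were called higher than in controls in the IFN-alpha-pMC group and 29 in the pMC group. Of all genes, 43.7% and 15% were called in either direction. With right control replicate 2 also left out, so that the group was a single library assumed to vary like the others, 50 and 6 members were called (43% and 12.5% of all genes).

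On the left, 81 of 83 members were higher in IFN-alpha-pMC tumours than in controls in the fitted values (median log2 change 0.69, all genes 0.07), as were 54.1% of all genes. Against pMC tumours 83 of 83 members were higher (median 0.46, all genes 0.07), as were 55% of all genes. Besides Rpl3l no member passed the test. At an unadjusted p under 0.05 there were 21 and 10. Rpl14 was next, with 0.83 ± 0.33 (log2, SE, with edgeR adjusted p = 0.0931). After the length and GC correction the members' medians by library were 0.49, 0.01 and -0.09 in the left IFN-alpha-pMC group. They were -0.13, 0.00 and -0.12 in the left controls and 0.07, 0.01 and -0.11 in the left pMC group, so the groups overlapped. Right control replicate 3 is in neither comparison but adds to the shared estimate of spread. Without it, 14 members were called higher than in controls and 4 higher than in pMC tumours, none lower. Of all genes, 27.1% and 19.1% were then called in either direction. On the right, 8 members were called higher than in controls without that library, beside 26.1% of all genes in either direction (1962 of 15125 genes higher). Without the 3 libraries that stand apart, the left medians were 0.21 and 0.00. Then 4 members (Rpl3l, Rpl14, Rpl6 and Rps4x) were called higher than in controls (28.8% of all genes called in either direction). Against pMC, Rpl3l, Rpl14, Rps6, Rpl4, Rpl23 and Rps4x were then higher and Rpl41 lower (27.6% of all genes called). The lowest member in the fitted comparison with control was Rpl23a (-1.59, not called), whose highest library was a left control.

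In the left pMC tumours 72 of 83 members were above the left controls in the fitted values (median log2 change 0.23, all genes 0.00), as were 48.9% of all genes. No member was called, and 0% of all genes were. Right minus left, the members' medians were 0.24 in controls (0% of all genes called), 0.15 in the pMC group (0%) and -0.39 in the IFN-alpha-pMC group (2.53%), with no member called. Without the 3 libraries that stand apart the first and last of these were -0.32 and 0.33, so their signs followed those libraries. The differences between sides had medians of -0.61 for IFN-alpha-pMC minus control (0% of all genes called), -0.57 for IFN-alpha-pMC minus pMC (0.391%) and -0.09 for pMC minus control (0%), with no member called. In these 8 comparisons without a called member, no member had an unadjusted p under 0.05 in edgeR, and DESeq2 called none.

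**Figure D5:**
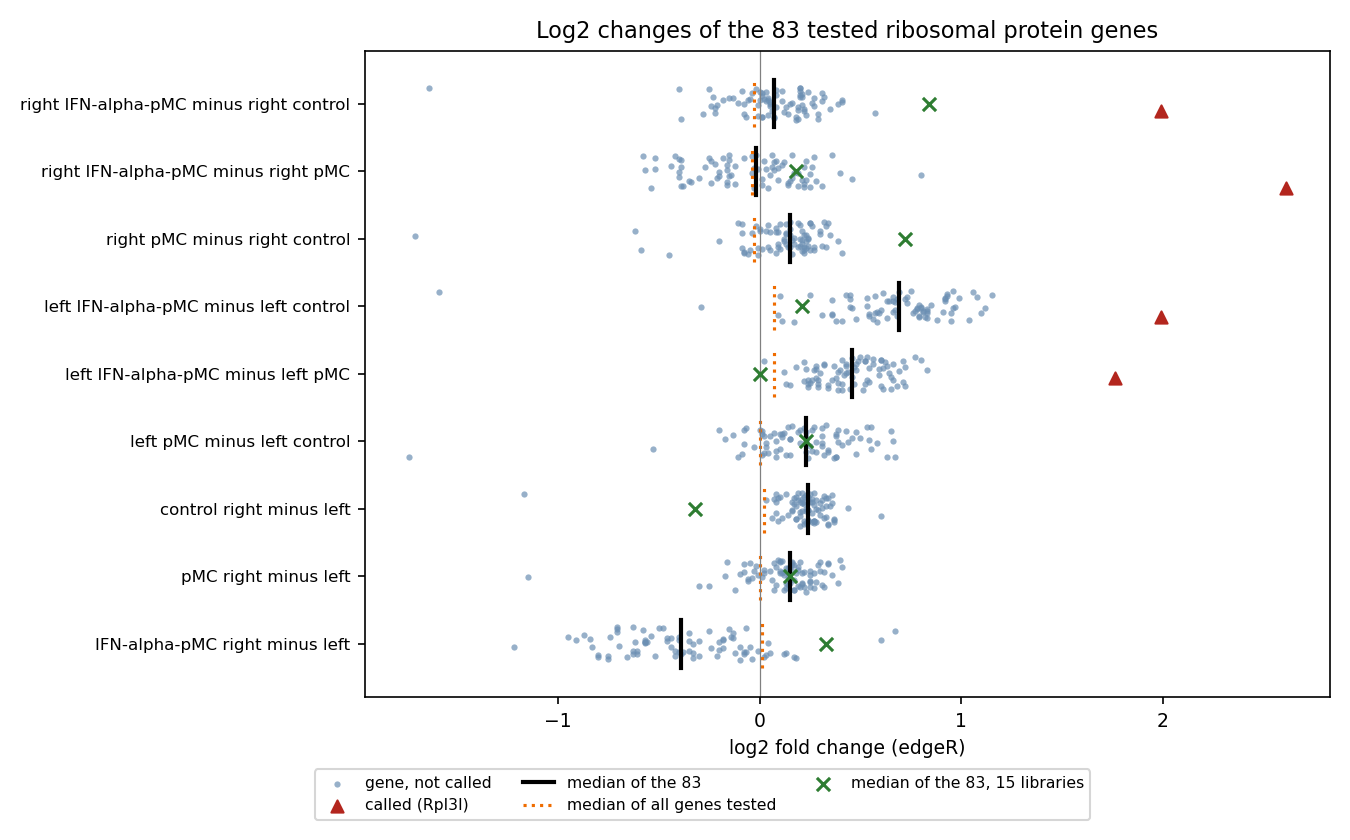
Log2 fold changes (x axis) of the 83 tested ribosomal protein genes in 9 comparisons (y axis), with the members' median (black bar), the median of all genes tested (dotted bar), called genes (triangles) and the members' median without the 3 libraries that stand apart (cross, 15 libraries). Rpl3l, at 1.99, 2.61, 1.99 and 1.76, is the only called member, and the cross moves from 0.07 to 0.84 for right IFN-alpha-pMC minus control and from 0.69 to 0.21 for the left.

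Among the other genes of the pathway, fixed in lists, few passed the test. Of 37 translation factors, Eef1a2, the muscle and neuron form of the elongation factor eEF1A, was higher in the right IFN-alpha-pMC group than in the right pMC group, at 21.8, 24.5 and 57.0 CPM against 1.54, 3.68 and 1.09 CPM (3.96 ± 1.06, edgeR adjusted p = 0.0222, and 0.13 with adjusted p = 0.959 with the muscle score). The muscle score did not overlap between these groups, so muscle and treatment cannot be told apart there. Of 55 assembly factors, Gnl3 (nucleostemin), and of 19 growth regulators, Mdm2, were higher in the left IFN-alpha-pMC group than in left controls, and Rptor, the mTORC1 subunit, was lower (2.6% of all genes were called lower). Mdm2 was at 122.4, 112.2 and 107.4 CPM against 76.8, 74.8 and 80.6 CPM (0.72 ± 0.20, edgeR adjusted p = 0.0431). Gnl3 was at 91.5, 75.2 and 65.2 CPM against 54.5, 52.5 and 48.9 CPM (0.75 ± 0.21, adjusted p = 0.0479), and Rptor at 32.9, 40.3 and 48.9 CPM against 84.1, 78.5 and 79.7 CPM (-0.85 ± 0.24, adjusted p = 0.0484). The groups did not overlap in any of the 4 genes. The calls of Mdm2, Gnl3 and Rptor were lost in 15, 18 and 19 of 29 alternative fits. With the length and GC correction the differences were 0.56, 0.22 and -0.19 (edgeR adjusted p = 0.0674, 0.266 and 0.167). In the lost fits without that correction they were 0.56 to 0.81 for Mdm2, 0.49 to 0.80 for Gnl3 and -0.95 to -0.80 for Rptor, with adjusted p from 0.0504 to 0.131, 0.0507 to 0.166 and 0.0514 to 0.138. No gene of the list of genes fused to or bound to ribosomal proteins was called in these comparisons.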

How the data were processed

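RNA of 18 mouse tumour samples (6 groups of 3, from the sample titles) was sequenced as TruSeq stranded mRNA libraries, per the labels' protocols. The deposited values are raw counts per Ensembl gene ID, 1 file per library. Per the submitters' processing notes reads were on build mm9 and the tools named are HTSeq 0.10.0, HISAT2 2.1.0, DESeq2 1.20.0, CASAVA 1.8.2, bcl2fastq, Trimmomatic 0.36 and FastQC. The counter's strand setting is not given in the sources used here. Its closing totals enter neither library sizes nor tests. They include pairs aligned more than once (18.38 to 24.34% of read pairs), so near-identical genes may be undercounted.

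Symbols were matched by Ensembl ID to GENCODE M21 for 32897 of 37620 IDs. Lengths are of 1 transcript per gene (CCDS entries first, then the longest coding part) and were known for 96.9% of tested genes. Promoter sequences are RefSeq's (GRCm38.p6) and no file coordinates were used. The test of counts was edgeR's quasi-likelihood F test (edgeR 4.0.16, R 4.3.3, two-sided, TMM scaling, filterByExpr, 1 model with 6 group means, 12 residual degrees of freedom, Benjamini-Hochberg over 14849 genes, threshold 0.05). An SE is the absolute log2 change over sqrt(F). Centred log2 CPM used TMM scaling and a prior count of 2. A count of 0 allows up to 3 counts, 0.128 to 0.209 CPM by library. Fits were tested on simulated data.

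Named were members that passed the test, all paralogs, parents and stalk genes, the 5 highest and 5 lowest by CPM per kb, by SD and by transcript length, and called genes of the other lists. Members and lists were chosen with earlier results of these data known. Alternatives were DESeq2 1.42.0, other scalings, no filter, a length and GC correction, a muscle score, a replicate block, only the groups compared, each library left out, and the 3 libraries that stand apart left out. Those 3 libraries were picked in earlier work on these same data, so leaving them out was not chosen without knowledge of the data. Leaving them out together with the length correction, or with right control replicate 2, was chosen after seeing the results here.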

Additional observations from a re-analysis of the deposited data

Results flagged for a closer look

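Ribosomal protein pseudogenes were outside the comparisons. The 195 gene IDs annotated as Rpl or Rps pseudogenes took 0.196% of the counts in left IFN-alpha-pMC replicate 1, above the 0.0653 to 0.172% of the 6 control libraries. The same library had the highest share of the protein-coding members (8.53%), and the highest control was right control replicate 3, with the second highest member share (6.76%).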

How the results depend on the processing

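Of the counts of called members, 311 of 348 alternative values were within 1.5 times the reported count, or were 0 where it was 0, as in most comparisons. Without 1 library, the count moved in 5 fits for left IFN-alpha-pMC minus control and in 8 for left IFN-alpha-pMC minus pMC. Of the medians, 328 of 348 moved by less than the spread between libraries (0.49). Most medians were smaller than this spread, so they could vanish without counting as moved. That of left IFN-alpha-pMC minus pMC went from 0.46 to 0.00 without 1 library. The 3 libraries that stand apart moved most. Without them, the called members were 73, 11 and 65 on the right (IFN-alpha-pMC minus control, IFN-alpha-pMC minus pMC, pMC minus control) and 4 and 7 on the left (IFN-alpha-pMC minus control and minus pMC), and the moved medians were 0.84 and 0.72 on the right (both against control), -0.32 and 0.33 for right minus left (control, IFN-alpha-pMC), and 0.69, 0.19 and 0.48 for the side differences (IFN-alpha-pMC minus control, IFN-alpha-pMC minus pMC, pMC minus control). With the length and GC correction as well, the counts were 27, 3, 29, 2 and 13 in the same order (43.7, 36.8, 15, 19.7 and 20.3% of all genes), and the moved medians 0.01 (left IFN-alpha-pMC minus control), 0.12 (IFN-alpha-pMC right minus left), 0.31 and -0.05 (side differences of IFN-alpha-pMC against control and pMC). Without right control replicate 2 as well, the counts were 50, 25, 6, 17 and 21, with 7 for IFN-alpha-pMC right minus left, of 83 members each, beside 43, 30.9, 12.5, 31.8, 31 and 6.61% of all genes, and the medians 0.36 (IFN-alpha-pMC right minus left), 0.36 and 0.22 (side differences). The cause was not tested.

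With the muscle score as a covariate, 0 members were called in the 4 comparisons that call Rpl3l. In these comparisons the score did not overlap between the groups, so this loss does not separate muscle from treatment. DESeq2 called 2 members in each left IFN-alpha-pMC comparison. The sources used here do not say whether equal replicate numbers mark the same mouse, and the main model did not pair them. Correlations of right with left deviations from group means at equal numbers were -0.25 to 0.6. Between treatments on the same side they were -0.76 to 0.37. Whether the samples are pairs was not settled. With the replicate block 0 members were called for left IFN-alpha-pMC minus pMC (Rpl3l edgeR adjusted p = 0.0567). The block changed no other count of members.

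Leaving out 1 library at a time gave 0 to 14 called members for left IFN-alpha-pMC minus control, 0 to 4 for left IFN-alpha-pMC minus pMC and 1 to 8 for right IFN-alpha-pMC minus control. The medians ran from -0.28 to 0.63 (right IFN-alpha-pMC minus control), -0.21 to 0.72 (right pMC minus control), -0.32 to 0.57 (control right minus left), -0.6 to 0.1 (IFN-alpha-pMC right minus left), and -0.93 to -0.07, -0.81 to -0.04 and -0.43 to 0.48 for the side differences in the order above. The calls of Mdm2, Gnl3 and Rptor were lost without 12, 13 and 14 of the 18 libraries and with the replicate block, and that of Eef1a2 without 3 libraries. Low counts limit Rpl3l (7 to 207 per library) and Rpl23a (2 to 172).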
